A study of Mus musculus with 15 samples.

Results

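The 10 CC chemokine genes described here are *Ccl2*, *Ccl3*, *Ccl4*, *Ccl5*, *Ccl7*, *Ccl8*, *Ccl11*, *Ccl17*, *Ccl20* and *Ccl22*, taken by symbol from deposited expression values for 21110 genes. All 10 were listed in every library. RNA came from ears of C57BL/6 mice that the labels call wild type or *Socs3* cKO, at 2 or 10 weeks of age. In *Socs3* cKO mice the deletion is specific to cells that express keratin 5, which are the basal keratinocytes of the epidermis and hair follicle, so the other cells of the ear keep the gene. The 15 libraries comprised 4 per genotype at 2 weeks, while the 10-week set had 3 wild type libraries and 4 of *Socs3* cKO. The paper states a larger number of wild type samples at both ages, so these 15 are not its whole set. The labels number the replicates, and the sources do not say whether a library holds RNA from a single mouse, so the p-values measure the spread between libraries. Values are FPKM, fragments scaled to gene length and to the mapped reads of the library, so that levels can be compared between genes.

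CC chemokines are small secreted proteins with adjacent cysteines that draw leukocytes through G protein-coupled receptors. *Ccl2*, *Ccl7* and *Ccl12* act mainly on monocytes through Ccr2, *Ccl11* on eosinophils through Ccr3, and mouse *Ccl8* mainly through Ccr8. *Ccl20* is made by epithelial cells and draws cells that carry Ccr6, such as IL-17-producing T cells and dendritic cells. *Ccl3*, *Ccl4* and *Ccl5* are inflammatory chemokines that draw monocytes and T cells, and *Ccl17* and *Ccl22* through Ccr4, which marks skin-homing T cells. Socs3 is an inhibitor of cytokine signaling that limits JAK/STAT3 signals downstream of gp130.

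The targeted gene was measured first. *Socs3* was 9.71, 10.25, 10.33 and 10.33 FPKM in wild type and 1.25, 9.32, 12.6 and 3.51 FPKM in *Socs3* cKO at 2 weeks, with a log2(FC) of -1.06 (SE 0.63, adjusted p = 0.18). At 10 weeks it was 2.76, 4.81 and 2.02 FPKM in wild type and 36.55, 29.76, 47.7 and 32.44 FPKM in *Socs3* cKO, and was called higher (log2(FC) 3.54, SE 0.29, adjusted p = 7.2e-05). At 10 weeks the gene thus went against the labels. The FPKM covers the whole gene in all cells of the ear and does not separate the deleted part, so it cannot check the deletion in keratinocytes. Wild type and *Socs3* cKO are therefore the names on the labels in all that follows.

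Several library properties moved with the groups. The number of genes listed at 0 was 1414 to 3176 in wild type at 10 weeks and 4044 to 4423 in the other groups. Across 13368 genes, the deviation of a library from the gene mean followed transcript length with Spearman's rho from 0.23 to 0.35 in wild type at 2 weeks, from -0.50 to -0.19 in wild type at 10 weeks, and from -0.26 to 0.46 in the *Socs3* cKO libraries. With GC content it was 0.08 to 0.46 in wild type and -0.63 to -0.14 in *Socs3* cKO, as the plot of both dependences shows. The median transcript of the 10 genes was 783.5 bases long with 46.9% GC, against 2911 bases and 50.6% for all genes, so values that this moves past a threshold or across 0 are also given after each library was adjusted for length and GC content by local regression. Each group holds its own range of library numbers in the labels, so the numbering and the group cannot be told apart. Keratinocyte markers were high in all groups, summing to 4750 to 11590 FPKM over 6 genes with none at 0. Monocyte and macrophage markers summed over 8 genes to 215 to 249.5 FPKM in wild type and 322 to 688 FPKM in *Socs3* cKO at 2 weeks, and to 268 to 441 and 633 to 1087 FPKM at 10 weeks. In bulk RNA, more cells of a type and more RNA per cell cannot be told apart.

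**Figure D1:**
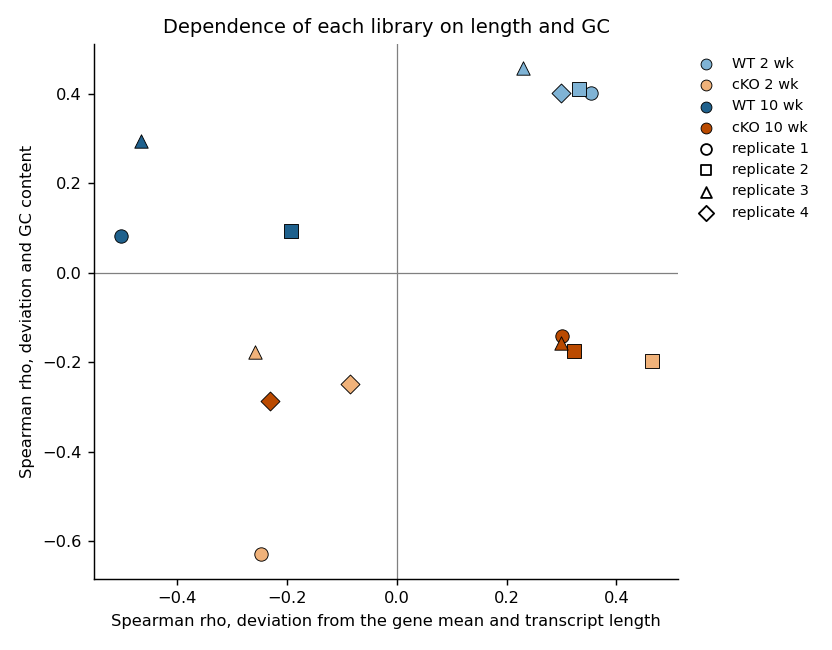
Spearman's rho between the deviation of a library from the mean log2(FPKM + 0.1) of each gene and transcript length (horizontal axis) or GC content (vertical axis), 1 point per library, colored by group and shaped by replicate. The 4 wild type libraries at 2 weeks sit together at the upper right, the wild type libraries at 10 weeks lie left of 0, and all 8 *Socs3* cKO libraries below 0 for GC content.

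All 10 genes have 3 exons in the mm9 annotation. *Ccl2*, *Ccl7*, *Ccl11* and *Ccl8* lie in this order within 81.2 kb of chromosome 11 (chr11:81849073-81930301), with *Ccl12* between *Ccl11* and *Ccl8*. *Ccl5*, *Ccl3* and *Ccl4* lie within 139.0 kb further along the same chromosome (chr11:83339280-83478185). *Ccl22* and *Ccl17* lie within 66.4 kb of chromosome 8 (chr8:97269490-97335935), and *Ccl20* stands alone on chromosome 1 (chr1:83113341-83115742). None of the 50-base stretches of the 10 transcripts, the length of a read, recurred in a coding transcript of another gene.

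The 250 bases before the start of transcription are shown for *Ccl20*, the member with the highest fold change at 10 weeks, for *Ccl8*, the most abundant member, which was not called between genotypes, and for *Ccl17*, a low member with STAT-type matches. They are RefSeq promoters, placed on mm9 by exact match, and are written 5′ to 3′ on the strand of the gene with motif matches in capitals.
*Ccl20* (chr1:83113091-83113340, + strand): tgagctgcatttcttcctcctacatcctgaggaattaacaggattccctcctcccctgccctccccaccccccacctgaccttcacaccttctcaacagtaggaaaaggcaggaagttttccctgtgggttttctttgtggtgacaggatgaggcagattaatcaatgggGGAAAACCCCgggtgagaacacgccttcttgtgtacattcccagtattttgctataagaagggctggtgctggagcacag
*Ccl8* (chr11:81928437-81928686, + strand): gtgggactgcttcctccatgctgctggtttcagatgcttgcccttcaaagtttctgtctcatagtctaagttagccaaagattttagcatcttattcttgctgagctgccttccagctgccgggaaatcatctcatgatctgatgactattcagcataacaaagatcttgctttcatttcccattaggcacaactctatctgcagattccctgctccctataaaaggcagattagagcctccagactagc
*Ccl17* (chr8:97334103-97334352, + strand): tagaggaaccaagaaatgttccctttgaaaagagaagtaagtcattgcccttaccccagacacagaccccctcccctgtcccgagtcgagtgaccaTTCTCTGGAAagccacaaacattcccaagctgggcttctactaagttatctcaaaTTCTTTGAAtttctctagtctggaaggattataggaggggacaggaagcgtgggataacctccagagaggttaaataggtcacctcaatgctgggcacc
The patterns searched on both strands were GGG and TTTCC with 2 free bases between them for NF-kB, TGANTCA for AP-1, TTC and GAA with 3 free bases between them for STAT factors, and the same with 4 free bases for STAT6. The capitals in *Ccl20* are an NF-kB match on the opposite strand, 80 to 71 bases before the start, and 1.41% of 27025 promoters held this pattern in a window of the same length. The capitals in *Ccl17* are a STAT6 match at 154 to 145 and a STAT match at 99 to 91 bases before the start, patterns held by 5.92% and 7.11% of promoters. *Ccl8* had no match to any of the patterns, and AP-1, held by 6.87% of promoters, matched in none of the 3 windows. The RefSeq promoters used here cover 5 of the 10 genes and lack *Ccl2*, *Ccl4*, *Ccl5*, *Ccl7* and *Ccl11*. Of the 5, *Ccl3* and *Ccl22* are not shown and had no match to any of the patterns.

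Before any comparison, the levels differed widely among the 10 genes. *Ccl8* was the most abundant in every group by its mean, at 65.2 ± 13.8 FPKM (SD, n = 4) at 2 weeks in wild type against 84.1 ± 44.6 FPKM (SD, n = 4) in *Socs3* cKO. At 10 weeks it reached 410 ± 122 FPKM (SD, n = 3) and 310 ± 67 FPKM (SD, n = 4). Its range was clear of that of the next gene in 3 of the 4 groups, and in *Socs3* cKO at 10 weeks it overlapped that of *Ccl7*. *Ccl11*, *Ccl7*, *Ccl2* and *Ccl20* followed at 3.93 to 7.29 FPKM in wild type at 2 weeks, and each overlapped its neighbor in that order. *Ccl22*, *Ccl5* and *Ccl17* had means of 1.38 to 2.53 FPKM there, and *Ccl3* and *Ccl4* were lowest at 0.302 and 0.321 FPKM. In *Socs3* cKO at 10 weeks the order was *Ccl8*, *Ccl7*, *Ccl2* and *Ccl20*, each overlapping the next, then *Ccl11*, which overlapped neither neighbor, and below it *Ccl22*, *Ccl17*, *Ccl3*, *Ccl4* and *Ccl5*, each again overlapping the next.

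**Figure D2:**
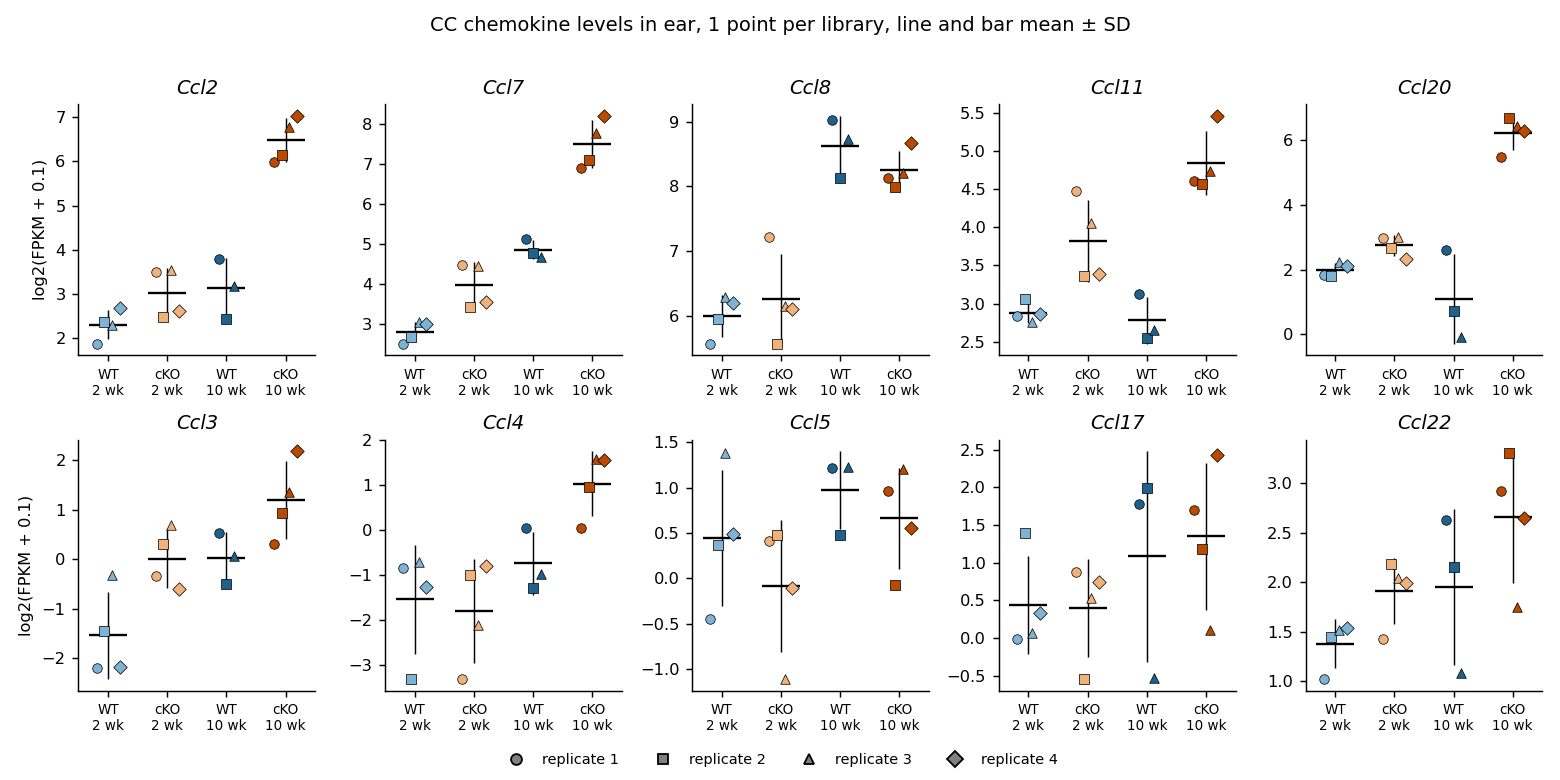
log2(FPKM + 0.1) of the 10 CC chemokines (1 panel per gene, with its own vertical axis) in wild type (WT) and *Socs3* cKO (cKO) at 2 and 10 weeks, 1 point per library shaped by replicate, with the mean (line) and SD (bar) of each group. *Ccl2*, *Ccl7*, *Ccl11* and *Ccl20* in *Socs3* cKO at 10 weeks lie above all wild type libraries of that age, while *Ccl8* overlaps.

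The genotypes were compared at 10 weeks to see which chemokines differed in the older ears. *Ccl20*, *Ccl2*, *Ccl7* and *Ccl11* rose in *Socs3* cKO, by 35.4-, 10.2-, 6.24- and 4.16-fold on the log2(FPKM + 0.1) scale. The other 6 did not pass the test. A gene was called at an adjusted p under 0.01 and a log2(FC) of at least 1 in size, by limma with Benjamini-Hochberg adjustment over all genes tested. All 10 passed the filter on low values, *Ccl4* only through the *Socs3* cKO libraries. For *Ccl3*, *Ccl17* and *Ccl20* the wild type libraries did not suffice either, so *Socs3* cKO libraries were needed. *Ccl20* was also called with no filter. Of the 13105 genes tested 14.9% were called and 12.5% were called higher, against 4 of the 10 chemokines. The median log2(FC) was 1.47 over the 10 chemokines and 0.31 over all genes tested. Scaling by the median of ratios moved the latter to 0.06 and the calls over all genes from 1638 higher and 319 lower to 1073 and 631, and the same 4 chemokines were called higher.

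*Ccl20*, the ligand of Ccr6, had the largest difference. It was 6.00, 1.56 and 0.843 FPKM in wild type and 44.6, 104, 87.2 and 78.2 FPKM in *Socs3* cKO. The lowest *Socs3* cKO library was above the highest wild type one by several times, and the log2(FC) was 5.15 (SE 0.55, adjusted p = 0.000292), the 32nd highest of the genes tested. Leaving out each library in turn gave 4.56 to 5.91.

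*Ccl2* and *Ccl7*, ligands of Ccr2, came next. *Ccl2* was 13.8, 5.29 and 8.98 FPKM in wild type and 63.2, 70.9, 110 and 131 FPKM in *Socs3* cKO. Its groups were far apart, with a log2(FC) of 3.35 (SE 0.35, adjusted p = 0.000255). *Ccl7* was 34.7, 27.03 and 25.4 FPKM in wild type and 119, 137, 219 and 293 FPKM in *Socs3* cKO. The log2(FC) of *Ccl7* was 2.64 (SE 0.30, adjusted p = 0.000414). In both genes replicates 3 and 4 of *Socs3* cKO were the highest.

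*Ccl11*, or eotaxin, was 8.66, 5.78 and 6.22 FPKM in wild type and 24.2, 23.5, 26.5 and 43.9 FPKM in *Socs3* cKO. Replicate 4 stood above the other 3, which lay within 3 FPKM of each other and above all wild type libraries. Its log2(FC) was 2.06 (SE 0.25, adjusted p = 0.000565). By the two-sided exact permutation test p was 0.0571 for each of *Ccl2*, *Ccl7*, *Ccl11* and *Ccl20*, which is the smallest p that 3 libraries against 4 allow. All *Socs3* cKO libraries lay above all wild type libraries in these 4 of the 10 genes, as in 31.2% of all genes tested. These 4 genes were called under all 10 alternative settings and with each of the 7 libraries left out. Monocyte and macrophage markers were called higher for 6 of 8 genes at 10 weeks, against 12.5% of all genes tested. *Socs3* cKO replicate 4, the highest library for *Ccl2*, *Ccl7* and *Ccl11*, also had their highest marker sum (1087 FPKM). In that library fibroblast, mast cell, T cell, eosinophil, endothelial, and Langerhans and dendritic cell markers summed highest of the group too. Keratinocyte, neutrophil, skeletal muscle, adipocyte and cartilage markers did not. The part of these sums in the result was not tested.

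*Ccl8*, which lies in the same stretch of chromosome 11, did not pass the test. It was 524, 280 and 425 FPKM in wild type and 281, 255, 297 and 407 FPKM in *Socs3* cKO. The ranges overlapped, with a log2(FC) of -0.38 (SE 0.26, adjusted p = 0.268). After length and GC adjustment it was 0.44 (adjusted p = 0.0394), the opposite direction, and still not called. *Ccl12*, which lies next to it and was not among the 10, had a log2(FC) of 0.23 (SE 0.42, adjusted p = 0.69).

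*Ccl3*, *Ccl4* and *Ccl5*, which draw monocytes and T cells, were low at 10 weeks. *Ccl3* was 1.35, 0.604 and 0.943 FPKM in wild type and 1.14, 1.81, 2.47 and 4.42 FPKM in *Socs3* cKO (log2(FC) 1.17, SE 0.44, adjusted p = 0.0599). *Ccl4* was 0.932, 0.310 and 0.404 FPKM in wild type and 0.931, 1.84, 2.91 and 2.84 FPKM in *Socs3* cKO (log2(FC) 1.78, SE 0.46, adjusted p = 0.0146). In each, 1 *Socs3* cKO library, replicate 1, lay within the wild type range. *Ccl4* was called without that library (2.11, adjusted p = 0.00766), and both genes were called after length and GC adjustment, at 1.76 (adjusted p = 0.00291) for *Ccl3* and 2.53 (adjusted p = 0.00172) for *Ccl4*. *Ccl4* passed the filter only through *Socs3* cKO libraries, where it is high, and for *Ccl3* the wild type libraries did not suffice. These calls are therefore no support. *Ccl5* was 2.22, 1.295 and 2.25 FPKM in wild type and 1.85, 0.852, 2.21 and 1.37 FPKM in *Socs3* cKO, and overlapped (log2(FC) -0.31, SE 0.36, adjusted p = 0.504), with the direction turned by length and GC adjustment (0.67).

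*Ccl17* and *Ccl22*, the ligands of Ccr4, overlapped between genotypes at 10 weeks. *Ccl17* was 3.33, 3.88 and 0.594 FPKM in wild type and 3.13, 2.16, 0.973 and 5.27 FPKM in *Socs3* cKO (log2(FC) 0.27, SE 0.67, adjusted p = 0.77). *Ccl22* was 6.08, 4.36 and 2.03 FPKM in wild type and 7.51, 9.84, 3.27 and 6.199 FPKM in *Socs3* cKO (log2(FC) 0.70, SE 0.43, adjusted p = 0.214). In both genes replicate 3 was the lowest of its group, in either genotype.

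**Figure D3:**
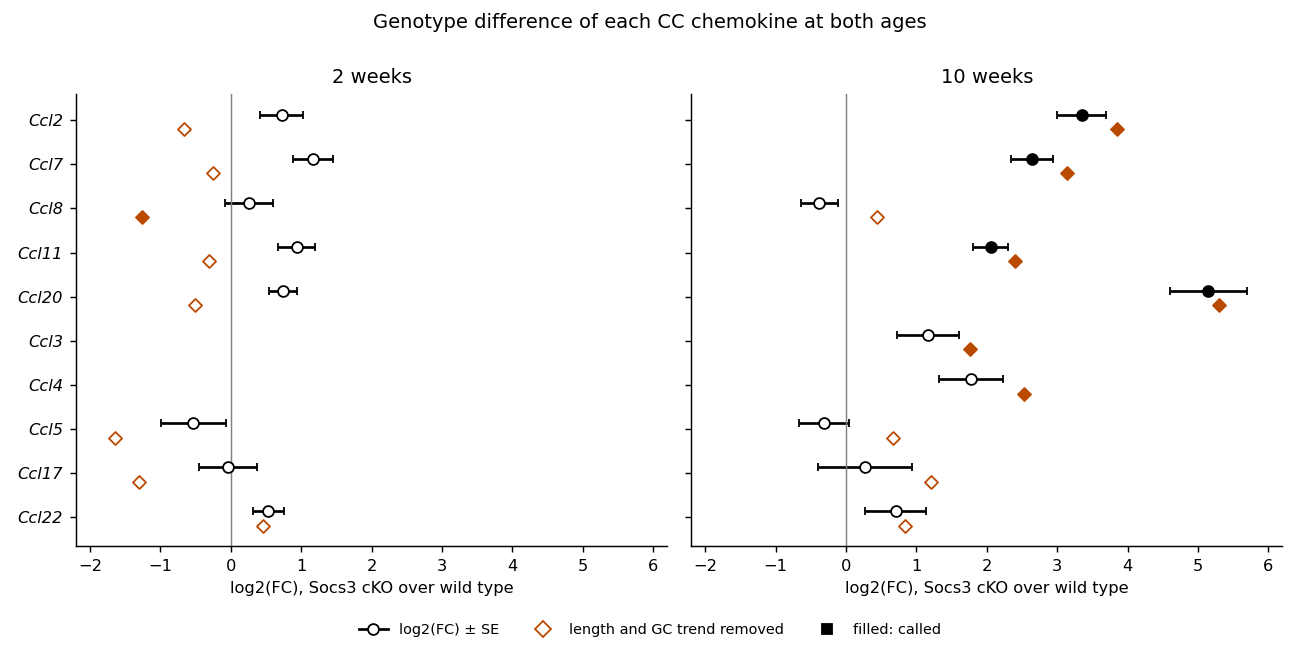
log2(FC) of *Socs3* cKO over wild type for each CC chemokine at 2 weeks (left) and 10 weeks (right), as black circles with the SE, and the same after length and GC adjustment, as orange diamonds without an error bar. Filled symbols were called, *Ccl3* and *Ccl4* have no value at 2 weeks because they did not pass the filter, and at 2 weeks 7 of the 8 diamonds lie below 0 while 6 of the 8 circles lie above it.

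At 2 weeks the same comparison asked which chemokines differed before the older age. None of the 8 chemokines that passed the filter was called by limma, while 14.4% of the 13524 genes tested were called (7.24% higher). By limma 5 of the 8 had an unadjusted p under 0.05. That count was not made over all genes, so it is no sign of a difference particular to these 8. All *Socs3* cKO libraries were above all wild type libraries for *Ccl7*, *Ccl11* and *Ccl20*, a pattern that 22.9% of all genes tested showed. *Ccl3* and *Ccl4* did not pass the filter. The median log2(FC) was 0.63 over the 8 genes, 6 of them above 0, and -0.21 over all genes tested, of which 41.7% were above 0, and scaling by the median of ratios moved the latter to -0.01 and called none of the 8.

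After length and GC adjustment, 7 of the 8 log2(FC) values at 2 weeks were below 0, and *Ccl8* was called lower in *Socs3* cKO (-1.27, adjusted p = 0.000607). *Ccl7* moved from 1.17 to -0.25, *Ccl11* from 0.94 to -0.31, *Ccl20* from 0.74 to -0.51 and *Ccl2* from 0.72 to -0.67. *Ccl22*, whose transcript of 2216 bases is the longest of the 10, went from 0.53 to 0.46. The values below are therefore given as measured, and their direction for *Ccl2*, *Ccl7*, *Ccl8*, *Ccl11* and *Ccl20* holds only without this adjustment.

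*Ccl7* was 5.54, 6.27, 8.06 and 7.79 FPKM in wild type and 22.1, 10.5, 21.5 and 11.5 FPKM in *Socs3* cKO. Replicates 1 and 3 of *Socs3* cKO were about the same as each other and higher than replicates 2 and 4. The log2(FC) was 1.17 (SE 0.29, adjusted p = 0.0132). By exact permutation p was 0.0286, the smallest that 4 against 4 allow. It was called without *Socs3* cKO replicate 2 (1.35, adjusted p = 0.00522) and when all 4 groups shared 1 fit (adjusted p = 0.00626).

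*Ccl11* and *Ccl2* showed the same 2 high libraries. *Ccl11* was 7.06, 8.26, 6.69 and 7.16 FPKM in wild type and 22.2, 10.2, 16.5 and 10.3 FPKM in *Socs3* cKO (log2(FC) 0.94, SE 0.26, adjusted p = 0.0203). *Ccl2* was 3.55, 5.06, 4.78 and 6.30 FPKM in wild type and 11.1, 5.42, 11.5 and 5.96 FPKM in *Socs3* cKO. The groups overlapped for *Ccl2*, through replicates 2 and 4 of *Socs3* cKO, and its log2(FC) was 0.72 (SE 0.30, adjusted p = 0.0755). Replicates 1 and 3 were also the libraries with the highest macrophage marker sums of the group, 688 and 466 FPKM against 322 and 376. They had the most negative rho with transcript length as well, -0.25 and -0.26 against 0.46 and -0.09. Mast cell, skeletal muscle and eosinophil markers also summed highest in these 2 libraries, while the other marker lists did not. The part of these properties in the result was not tested.

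*Ccl20* was 3.48, 3.41, 4.63 and 4.21 FPKM in wild type and 7.77, 6.29, 7.89 and 4.92 FPKM in *Socs3* cKO. All *Socs3* cKO libraries were higher, by little for replicate 4, and the log2(FC) was 0.74 (SE 0.20, adjusted p = 0.019). *Ccl22* was 1.93, 2.62, 2.78 and 2.80 FPKM in wild type and 2.59, 4.44, 4.04 and 3.89 FPKM in *Socs3* cKO (log2(FC) 0.53, SE 0.22, adjusted p = 0.0731). Only replicate 1 of *Socs3* cKO fell within the wild type range of *Ccl22*. With quantile normalization *Ccl7*, *Ccl11*, *Ccl20* and *Ccl22* were called higher, as were 1474 of all 13524 genes tested.

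*Ccl8* was 47.4, 61.5, 78.6 and 73.2 FPKM in wild type and 149, 47.4, 70.8 and 68.9 FPKM in *Socs3* cKO at 2 weeks. A single library, *Socs3* cKO replicate 1, lay outside the wild type range. The log2(FC) was 0.26 (SE 0.34, adjusted p = 0.527), and -0.06 without that library.

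The low members were 0.363 to 2.52 FPKM at 2 weeks for *Ccl5* and *Ccl17*. *Ccl5* was 0.631, 1.19, 2.51 and 1.31 FPKM in wild type and 1.23, 1.29, 0.363 and 0.8292 FPKM in *Socs3* cKO (log2(FC) -0.53, SE 0.47, adjusted p = 0.354). *Ccl17* was 0.890, 2.52, 0.947 and 1.15 FPKM in wild type and 1.73, 0.585, 1.35 and 1.58 FPKM in *Socs3* cKO (log2(FC) -0.04, SE 0.41, adjusted p = 0.94). Both overlapped. *Ccl3* was 0.118, 0.266, 0.701 and 0.122 FPKM in wild type and 0.687, 1.13, 1.52 and 0.557 FPKM in *Socs3* cKO, and the exact permutation test gave p = 0.0857. *Ccl4* was at most 0.515 FPKM in every library and listed at 0 in 1 library of each genotype.

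Whether the genotype difference changed with age was tested as an interaction in a fit of all 4 groups. The difference was larger at 10 weeks for *Ccl20* (interaction 4.40 in log2 units, SE 0.64, adjusted p = 0.000252) and *Ccl2* (2.63, SE 0.50, adjusted p = 0.00136). These 2 of the 10 were called at an adjusted p under 0.01, as were 25.6% of the 13937 genes tested (18.5% higher). *Ccl7* (1.47, SE 0.45, adjusted p = 0.0159) and *Ccl11* (1.12, SE 0.38, adjusted p = 0.028) were not. *Ccl8* had an interaction of -0.64 (SE 0.45, adjusted p = 0.25). *Ccl20* was called under all 9 alternatives and with each of the 15 libraries left out, and *Ccl2* under all but quantile normalization (1.92, adjusted p = 0.0115). Without *Socs3* cKO replicate 1 at 2 weeks *Ccl7* (1.64, adjusted p = 0.00631) and *Ccl11* (1.34, adjusted p = 0.00421) were called as well. The median interaction of all genes was 0.55, and 0.10 with scaling by the median of ratios, where *Ccl20* (3.95) and *Ccl2* (2.16) were both called. After length and GC adjustment 6 of the 10 were called, namely *Ccl20* (5.77), *Ccl2* (4.48), *Ccl4* (4.02), *Ccl7* (3.35), *Ccl11* (2.66) and *Ccl8* (1.68), the last with its direction turned. In that setting 3434 of the 13368 genes tested were called, 2983 of them higher. *Ccl4* passed the filter of this fit only through *Socs3* cKO libraries at 10 weeks, where it is high, so its call is no support.

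The ages were compared within each genotype in the same fit. In *Socs3* cKO *Ccl7*, *Ccl20*, *Ccl2* and *Ccl8* rose from 2 to 10 weeks, with log2(FC) values of 3.53 (SE 0.30, adjusted p = 8.24e-06), 3.49 (SE 0.43, adjusted p = 0.000158), 3.46 (SE 0.34, adjusted p = 1.88e-05) and 1.99 (SE 0.31, adjusted p = 0.000854). These were 4 of the 10 genes, while 3.54% of all genes tested were called and 2.01% were called higher. *Ccl4* (2.85, SE 0.64, adjusted p = 0.012) and *Ccl11* (1.02, SE 0.26, adjusted p = 0.0235) were higher in all 10-week libraries and missed the threshold, and *Ccl4* passed the filter only through the *Socs3* cKO libraries at 10 weeks. Both were called after length and GC adjustment, *Ccl4* at 3.33 (adjusted p = 0.00723) and *Ccl11* at 1.51 (adjusted p = 9.77e-06). *Ccl8* was not called when the fit held only the 2 *Socs3* cKO groups (adjusted p = 0.0147). *Ccl3*, *Ccl5*, *Ccl17* and *Ccl22* had log2(FC) values of 0.75 to 1.18 with overlapping ranges.

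In wild type *Ccl8* and *Ccl7* were called higher at 10 weeks, with log2(FC) values of 2.63 (SE 0.33, adjusted p = 3.55e-05) and 2.06 (SE 0.33, adjusted p = 0.000236). These were 2 of the 10 genes, and 25.5% of all genes tested were called and 6.18% were called higher. After length and GC adjustment both stayed above 0 but were no longer called, at 0.90 (adjusted p = 0.000356) for *Ccl8* and 0.73 (adjusted p = 0.0242) for *Ccl7*. The 2 transcripts are 511 and 801 bases long. *Ccl20* (-0.92, SE 0.47, adjusted p = 0.114) and *Ccl11* (-0.10, SE 0.28, adjusted p = 0.78) were not called in wild type, and after length and GC adjustment both were called lower, at -1.78 (adjusted p = 0.00502) and -1.15 (adjusted p = 6.27e-05). In all, 6 of the 10 values were below 0 after that adjustment, against 2 before it, among them *Ccl2* (0.84 to -0.47), *Ccl4* (0.80 to -0.69), *Ccl5* (0.53 to -1.10) and *Ccl17* (0.64 to -1.05), none of them called. *Ccl20* was also called lower without wild type replicate 1 at 10 weeks (-1.68, adjusted p = 0.00213). The wild type libraries at 10 weeks were the ones with few genes at 0 and negative rho with length. The share of calls in the higher direction over all genes was 861 of 3559, and 1552 of 3297 with scaling by the median of ratios.

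The makeup of the chemokine transcripts differed between the groups. The FPKM of the 10 genes summed at 2 weeks to 94.2 ± 17.4 (SD, n = 4) in wild type against 138 ± 57.3 (SD, n = 4) in *Socs3* cKO, and at 10 weeks to 468 ± 135 (SD, n = 3) against 720 ± 190 (SD, n = 4). *Ccl8* made up 68.9% ± 2.2 (SD, n = 4) and 59.4% ± 7.6 (SD, n = 4) of this sum at 2 weeks. At 10 weeks it was 87.3% ± 2.5 (SD, n = 3) in wild type, with no library under 84.8%, and 43.7% ± 5.3 (SD, n = 4) in *Socs3* cKO, with none over 51.4%. *Ccl7* took 25.9% ± 4.4, *Ccl2* 12.8% ± 1.5 and *Ccl20* 11.2% ± 4.3 (SD, n = 4) in *Socs3* cKO at 10 weeks, against 6.44% ± 1.5, 1.93% ± 0.35 and 0.549% ± 0.42 (SD, n = 3) in wild type. No library of either group overlapped the other in these 4 shares at 10 weeks. The shares are parts of 1 sum and depend on each other, so they are not 4 separate results. The FPKM of *Ccl8* itself overlapped at 10 weeks and was not called by limma (log2(FC) -0.38, adjusted p = 0.268). Such a separation of shares was not counted over other genes.

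**Figure D4:**
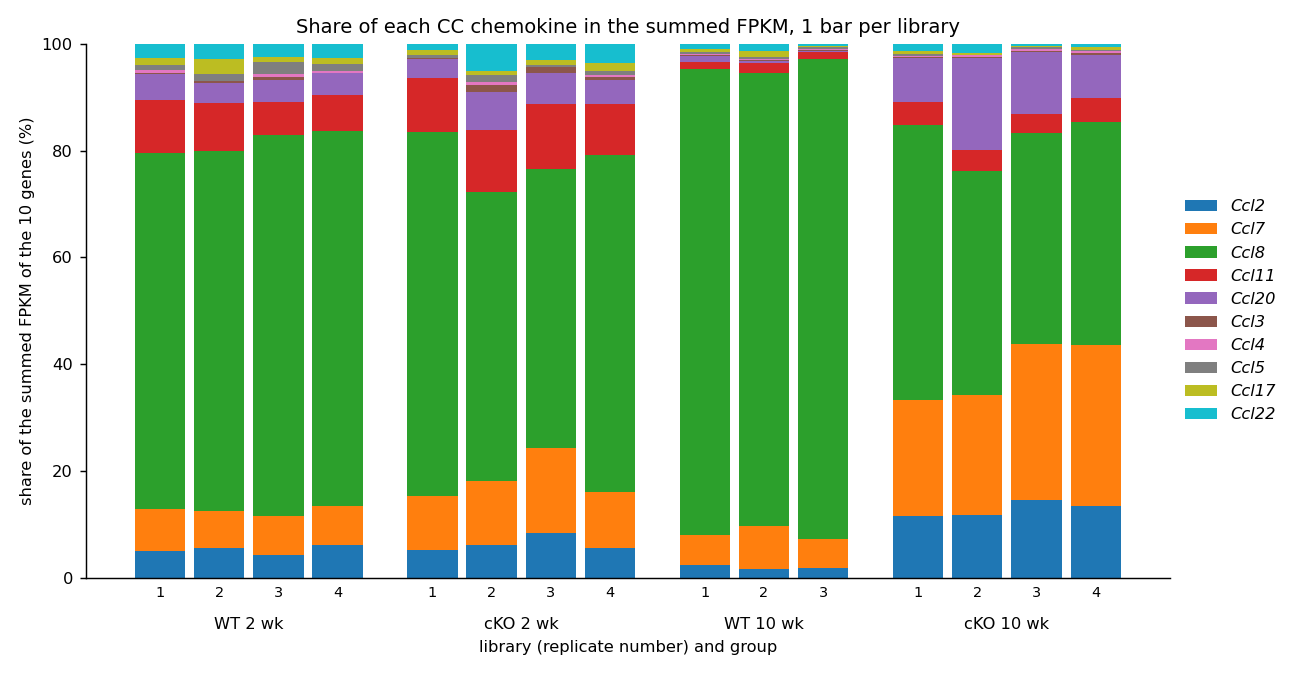
Share of each CC chemokine (color) in the summed FPKM of the 10 genes, 1 bar per library, grouped by age and genotype. *Ccl8* fills most of each bar in wild type at 10 weeks (84.8% to 89.9%), and *Ccl7*, *Ccl2* and *Ccl20* widen in *Socs3* cKO at 10 weeks.

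Ratios within a library compare transcripts under the same depth. *Ccl7* and *Ccl2* have transcripts of nearly equal length and GC content (801 and 813 bases, 42.9% and 43.4%). The ratio of *Ccl7* to *Ccl2* at 2 weeks was 1.43 ± 0.23 (SD, n = 4) in wild type against 1.93 ± 0.045 (SD, n = 4) in *Socs3* cKO, and at 10 weeks 3.48 ± 1.42 (SD, n = 3) against 2.01 ± 0.16 (SD, n = 4). Across all 8 *Socs3* cKO libraries it lay between 1.88 and 2.24, while *Ccl2* ranged from 5.42 to 131 FPKM and *Ccl7* from 10.5 to 293 FPKM. The ratio of *Ccl8* to *Ccl2* was 46.1 ± 7.6 (SD, n = 3) at 10 weeks in wild type against 3.47 ± 0.75 (SD, n = 4) in *Socs3* cKO, with 37.9 as the lowest and 4.45 as the highest value of the respective groups.

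Over the 15 libraries, *Ccl2* was most like *Cd14*, *Il6* and *Ptgs2* among 13937 genes, with Pearson's r of log2(FPKM + 0.1) of 0.985, 0.985 and 0.971, and its closest member was *Ccl7* (0.966). *Cd14* is a monocyte and macrophage receptor, *Il6* a cytokine that signals through gp130, and *Ptgs2* the inducible cyclooxygenase. *Ccl7* was most like *Mt2*, *H2-DMb1* and *Cd14* (0.973, 0.962 and 0.962). *Ccl20* was most like *Map3k8*, *Cxcl1* and *Gem* (0.961, 0.959 and 0.958), of which *Cxcl1* is a neutrophil-attracting chemokine. *Ccl8* was most like *Nnmt*, *C1qc* and *Trem2* (0.928, 0.927 and 0.921), the latter 2 being macrophage genes. *Ccl11* was most like *Cytip*, *Stk17b* and *AI607873* (0.969, 0.967 and 0.960). These values describe the libraries, which fall into 4 groups and share their length and GC trends, and carry no test.

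The other CC ligands were counted for comparison. Of 13 listed, 10 passed the filter, and *Ccl26* and *Ccl28* were at 0 in every library. At 10 weeks none of the 10 was called by limma, against 14.9% of all genes tested. An unadjusted p under 0.05 was found for 1 of the 10, a count not made over all genes. At 2 weeks 4 were called higher in *Socs3* cKO, namely *Ccl6* and the 3 *Ccl21* genes, against 7.24% of all genes tested. The median log2(FC) over the 10 was 0.42 at 2 weeks and -0.21 at 10 weeks. After length and GC adjustment these medians were -0.19 and 0.53, so both turned. *Ccl6*, a myeloid chemokine, was 10.7 to 14.2 FPKM in wild type and 23.4 to 38.7 FPKM in *Socs3* cKO at 2 weeks (log2(FC) 1.42, SE 0.20, adjusted p = 0.00128), and 0.54 after length and GC adjustment, when it was not called. *Ccl21a*, *Ccl21b* and *Ccl21c*, which guide dendritic and T cells through Ccr7, share 99.8% to 100% of their 50-base stretches with copies, so their values cannot be told apart and count as 1 signal. *Ccl21a* was 25.1 to 32.6 FPKM in wild type and 57.2 to 147 FPKM in *Socs3* cKO at 2 weeks (log2(FC) 1.66, SE 0.27, adjusted p = 0.00264). *Ccl21a* was still called after length and GC adjustment (1.16, adjusted p = 0.000716), while *Ccl21b* and *Ccl21c*, both at 0.92, were not, and *Ccl12* was called lower (-1.34, adjusted p = 0.000723). *Ccl19*, the other ligand of Ccr7, shares 96.4% of its stretches with copies and was lower in all *Socs3* cKO libraries at 2 weeks without being called (-0.83, SE 0.19, adjusted p = 0.011), and was called lower after length and GC adjustment (-1.36, adjusted p = 0.00216).

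At 10 weeks 4 CC receptors passed the filter. *Ccr7* was called higher at 10 weeks, the only one of the 4 tested. It was 0.514, 0.160 and 0.381 FPKM in wild type and 2.05, 2.18, 3.41 and 2.42 FPKM in *Socs3* cKO (log2(FC) 2.59, SE 0.35, adjusted p = 0.00099), and it passed the filter through the *Socs3* cKO libraries alone. Langerhans and dendritic cell markers, whose mature cells carry Ccr7, summed over 8 genes to 569 to 659 FPKM in wild type and 991 to 1163 FPKM in *Socs3* cKO at 10 weeks. Their part in the result was not tested. *Ccr2*, the receptor of *Ccl2* and *Ccl7*, was 4.62, 5.79, 5.22 and 5.01 FPKM in wild type and 20.4, 8.12, 10.7 and 9.46 FPKM in *Socs3* cKO at 2 weeks. All *Socs3* cKO libraries were higher, with a log2(FC) of 1.13 (SE 0.28, adjusted p = 0.0131), and at 10 weeks it was 0.19 (SE 0.34, adjusted p = 0.681). *Ccr10*, a receptor of skin-homing T cells, was lower in all *Socs3* cKO libraries at 2 weeks, 0 to 0.465 FPKM against 0.887 to 1.45 FPKM (log2(FC) -2.15, SE 0.49, adjusted p = 0.01), and was not called. It passed the filter only through wild type, where it is high, and was called lower after length and GC adjustment (-1.75, adjusted p = 0.00594). *Ccr6*, the receptor of *Ccl20*, and *Ccr8*, that of mouse *Ccl8*, stayed under 1 FPKM in every library, as did *Ccr3*, that of *Ccl11*.

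The 4 atypical receptors, which bind or scavenge chemokines without G protein signaling, all passed the filter. *Ccrl2* was called higher at 10 weeks, at 0.382, 1.23 and 0.580 FPKM in wild type and 8.84, 6.80, 7.88 and 9.63 FPKM in *Socs3* cKO (log2(FC) 3.46, SE 0.33, adjusted p = 0.00019). At 2 weeks all *Socs3* cKO libraries were above wild type for *Ccrl2* as well, without a call (1.19, SE 0.31, adjusted p = 0.016). At neither age did the wild type libraries of *Ccrl2* suffice for the filter. It passed through *Socs3* cKO, where it is high, so the call and the separation are no support. *Ccbp2*, or *Ackr2*, a scavenger of inflammatory CC chemokines, was 1.505, 2.69 and 1.40 FPKM in wild type and 4.70, 4.35, 3.60 and 3.08 FPKM in *Socs3* cKO at 10 weeks, which did not overlap and was not called (1.08, SE 0.28, adjusted p = 0.0156), and was called after length and GC adjustment (1.12, adjusted p = 0.00943). *Darc* (*Ackr1*) and *Ccrl1* (*Ackr4*) had log2(FC) values of -0.19 and 0.90 at 10 weeks and were not called.

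**Figure D5:**
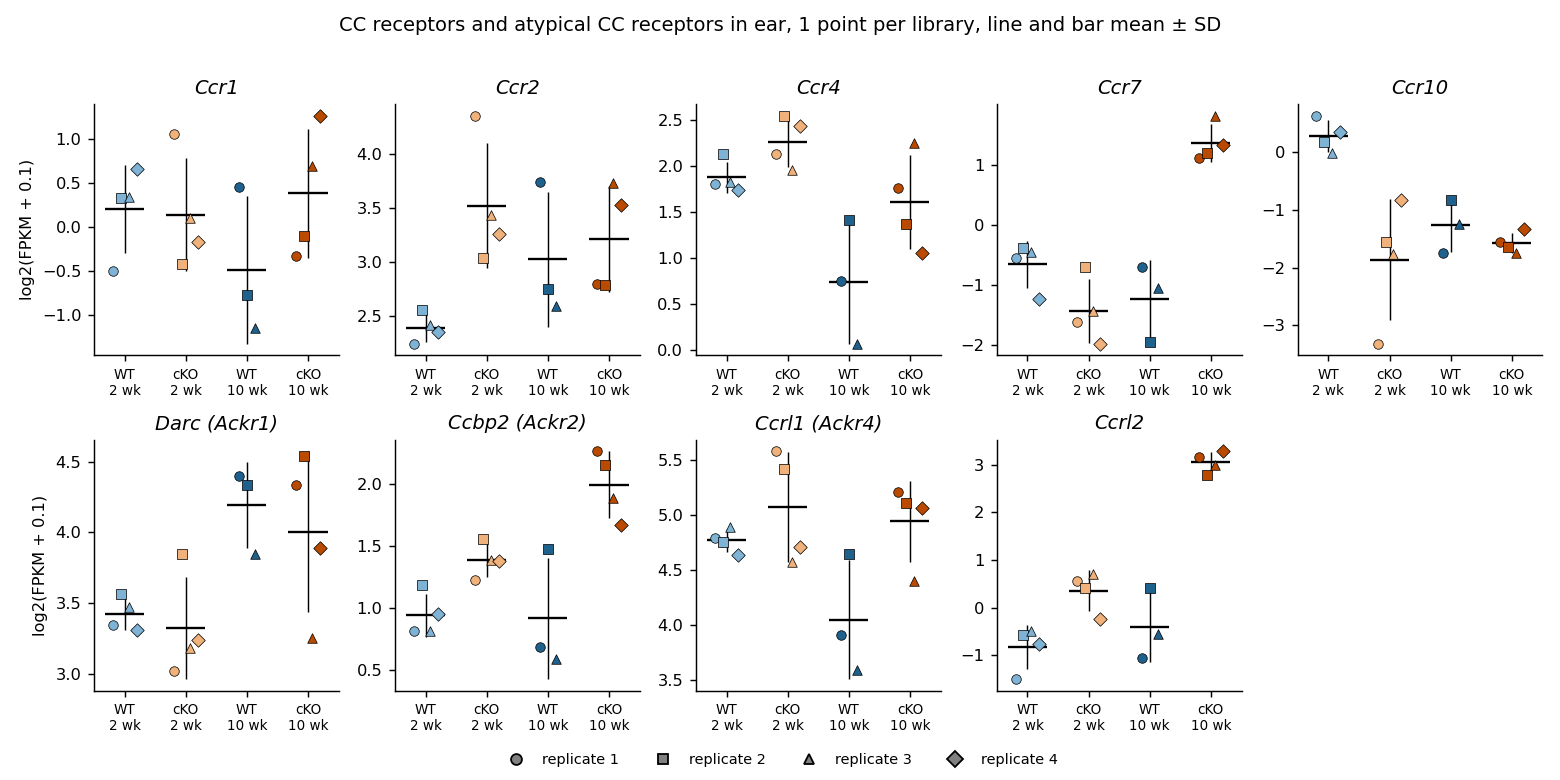
log2(FPKM + 0.1) of 5 CC receptors and the 4 atypical receptors (1 panel per gene, with its own vertical axis), 1 point per library shaped by replicate, with the mean (line) and SD (bar). *Ccr7* and *Ccrl2* in *Socs3* cKO at 10 weeks lie above every other library, and *Ccr2* is lowest in wild type at 2 weeks.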

How the data were processed

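RNA of mouse ears was sequenced as single reads of 50 bases, and the authors deposited 1 FPKM value (fragments per kilobase and per mapped reads) per gene and library for 21110 genes. The submitters' processing notes name TopHat2 2.1.0, Cufflinks and the mm9 genome. The Cufflinks version and the gene annotation behind the FPKM values are not given in the sources used here. No counts are at hand, so the sequencing depth is unknown, no counting interval was computed and the count test of the study was not repeated.

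Groups were taken from the labels. FPKM values were transformed to log2(FPKM + 0.1), and genes with at least 1 FPKM in at least 3 libraries of the fit were tested with limma 3.58.1 (R 4.3.3) with a variance trend. Genotypes were compared within each age on the groups concerned. The interaction and the age comparisons used 1 fit of all 4 groups. P-values were adjusted by Benjamini-Hochberg over all genes tested. A gene was called at an adjusted p under 0.01 and a log2(FC) of at least 1 in size, and an interaction at an adjusted p under 0.01. The script was tested on simulated data. Single genes were also compared by two-sided exact permutation tests (scipy 1.17.1).

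The 10 chemokines and the gene lists were chosen with earlier results of these data known. All 10 are named, as are genes of the ligand, receptor and atypical receptor lists (1 receptor is not reported here), and for each chemokine the 3 genes with the highest Pearson's r over the 15 libraries. Positions, transcript length and GC content come from a GENCODE annotation of mm9, and promoters from RefSeq (GRCm38.p6), which held 5 of the 10 genes. The alternatives were pseudocounts of 1 and 0.01, no filter and a stricter one, quantile normalization, median-of-ratios scaling, a block for the replicate number, other samples in the fit, a constant prior variance, length and GC adjustment of each library (local regression, span 0.4), and leaving out each library.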

Additional observations from a re-analysis of the deposited data

Results flagged for a closer look

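In *Socs3* cKO at 10 weeks, *Ccl11* in replicate 4 was 43.9 FPKM, and its gap to the next library took a fraction of 0.856 of the range of the group, above the 95% critical value of Dixon's test for 4 samples. In wild type at 2 weeks, *Ccl17* in replicate 2 was 2.52 FPKM with a fraction of 0.838, and *Socs3* in replicate 1 was 9.71 FPKM with a fraction of 0.866. These were 3 of 33 groups of 4 libraries examined, where chance gives about 1 in 20.

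The genotype difference itself differed between the ages, by the interaction term of limma in log2 units, for *Ccl20* (4.40, adjusted p = 0.000252) and *Ccl2* (2.63, adjusted p = 0.00136) among the 10 chemokines. Among the receptors it differed for *Ccr7* (3.37, adjusted p = 0.000291) and *Ccrl2* (2.27, adjusted p = 0.0025). *Ccr7* passed the filter of this fit only through *Socs3* cKO libraries at 10 weeks, where it is high, so its call is no support. *Ccrl2* passed it largely through *Socs3* cKO libraries. The genotype difference was lower at 10 weeks for *Ccl21a* (-1.89, adjusted p = 0.0039), *Ccl21b* (-1.77, adjusted p = 0.00424) and *Ccl21c* (-1.71, adjusted p = 0.00493), which share nearly all their sequence. These became, after length and GC adjustment, -0.61 (adjusted p = 0.069), -0.48 (adjusted p = 0.125) and -0.41 (adjusted p = 0.183), and were not called. The targeted gene *Socs3* had an interaction of 4.60 (adjusted p = 0.000644).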

How the results depend on the processing

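At 10 weeks *Ccl2*, *Ccl7*, *Ccl11* and *Ccl20* were called under every alternative run, and leaving out a library gave 4 to 5 calls. Over all genes, leaving out a library gave 745 to 2665 calls at 10 weeks, against 1957 in the main fit. At 2 weeks the main count of 0 became 4 with quantile normalization, 1 with all 4 groups in 1 fit, 1 after length and GC adjustment, and 0 to 2 leaving out a library. Over all genes the main count of 1951 of 13524 became, in the same order, 2869 of 13524, 3300 of 13937, 1527 of 13037, and 859 to 3348. The interaction count of 2 became 1, 6 and 2 to 4 with quantile normalization, after length and GC adjustment and with a library left out. Over all genes the interaction count of 3566 of 13937 became 4142 of 13937, 3434 of 13368, and 1994 to 5117 in these settings. In wild type with age, 2 higher became 5 with quantile normalization and 2 lower after length and GC adjustment. Over all genes, 861 higher became 1721 with quantile normalization, and 2698 lower became 2642 after length and GC adjustment. In *Socs3* cKO with age, 4 became 6 after that adjustment and 3, without *Ccl8*, with only those 2 groups in the fit. Over all genes, 493 of 13937 became 648 of 13368 and 146 of 13179. The cause was not tested.

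Directions turned in the following cases among others. After length and GC adjustment, 2-week values were -0.67 for *Ccl2*, -0.25 for *Ccl7*, -1.27 for *Ccl8*, -0.31 for *Ccl11* and -0.51 for *Ccl20*. The 10-week values were 0.67 for *Ccl5* and 0.44 for *Ccl8*, the *Ccl8* interaction was 1.68, and the age values in wild type were -0.47 for *Ccl2*, -0.69 for *Ccl4*, -1.10 for *Ccl5*, -1.05 for *Ccl17* and -0.04 for *Ccl12*. With quantile normalization, 2-week values were 0.13 for *Ccl5*, -0.007 for *Ccl8* and 0.62 for *Ccl17*, the 10-week value of *Ccl17* was -0.20, and *Ccl11* with age in wild type was 0.52. Median-of-ratios scaling gave 0.15 for *Ccl17* at 2 weeks and 0.29 for *Ccl11* with age in wild type. Leaving out a library gave -0.06 to 0.49 for *Ccl8* and -0.20 to 0.28 for *Ccl17* at 2 weeks, -0.54 to 0.72 for *Ccl17* at 10 weeks, and -0.27 to 0.013 for *Ccl11* with age in wild type.

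With the replicate number as a block, 0 chemokines were called at 2 weeks, 4 at 10 weeks, 2 in the interaction, and 2 and 4 with age in wild type and *Socs3* cKO, the same counts as without it. *Ccl17* at 10 weeks turned to -0.091. Over all genes the block moved the calls at 2 weeks from 1951 to 751. Same-numbered libraries correlated in their deviations at -0.04 to 0.14 at 2 weeks and -0.21 to 0.07 at 10 weeks. Whether they share more than a number cannot be told from these values, as the groups are small. The depth of the libraries is unknown, so the precision of genes under 1 FPKM is not known.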

Other observations

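Of 8 genes that carry chemokine receptor signals inside cells, none was called by limma at 2 weeks, against 14.4% of all genes tested. An unadjusted p under 0.05 was found for 4 of the 8, a count not made over all genes. At 10 weeks 3 of the 8 were called higher in *Socs3* cKO, and 1 after length and GC adjustment, against 12.5% of all genes tested called higher. Of these 3, *Dock2*, passed the filter only through the *Socs3* cKO libraries. The median log2(FC) of the 8 was -0.61 at 2 weeks and 0.21 at 10 weeks, against -0.21 and 0.31 over all genes tested.

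Among the lower chemokines, *Ccl4*, *Ccl5* and *Ccl17* had weaker likeness to other genes over the 15 libraries. The highest values of *Ccl3* and *Ccl22* were close to that of *Ccl8* (0.928). *Ccl3* was most like *Gstt2*, *H2-DMb1* and *Clec4d* (Pearson's r 0.918, 0.900 and 0.885) and *Ccl4* most like *Atf4*, *Slc2a6* and *Kcmf1* (0.888, 0.866 and 0.865). *Ccl22* was most like *Pgrmc1*, *Akap7* and *Tmem135* (0.919, 0.876 and 0.856). *Ccl5* was most like *Slfn5*, *Mir680-2* and *Sycp3* (0.740, 0.724 and 0.713).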
